A study of Rattus norvegicus with 4 samples.

Results

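The genes described here make, bind and break down hyaluronan, the large unsulfated sugar polymer of loose connective tissue. They are Has1, Has2, Cd44, Hyal1, Hyal2, Tnfaip6, Ptx3, Vcan and Cemip2, taken by symbol from the gene rows of the deposited matrices, and are 9 of 30560 rows. Each symbol stood on 1 row. RNA of single cells was measured in 4 libraries from the abdominal midline fascia of rats, 2 titled acupuncture and 2 titled dysentery. Dysentery had been induced with Salmonella in the rats of both groups, and those of the acupuncture group then received acupuncture. Strain, sex and age are not given in the sources used here. The treatment field of all 4 libraries names the opposite group to the title. The groups below follow the titles, which the descriptions and the design text share, and every sign would turn if the treatment field were right. Nothing in the labels ties a library to an animal or a pool of animals. A p-value here therefore measures library-to-library spread, which may be technical.

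Hyaluronan synthases sit in the plasma membrane and extrude the growing chain directly into the matrix, using sugar nucleotides from the cytosol. Outside the cell, the chain is loaded with proteins that cross-link it and recruit proteoglycans, and it is bound at cell surfaces by receptors such as Cd44. Hyaluronidases at the surface and in lysosomes then cut it. In fascia, hyaluronan lies between collagen layers and is known for letting them glide.

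The deposited matrices held 7965 to 11327 cells and 53066666 to 93897006 UMIs per library (UMIs are counted molecules), with a median of 5539 to 8757.5 UMIs per cell. Filters on genes, UMIs and mitochondrial UMIs and the removal of likely doublets left 32397 of 38282 cells. In dysentery replicate 1, 16.0% of the deposited cells were over the mitochondrial limit, against 5.11% to 7.17% in the other libraries. Pairs of libraries shared 19 to 32 cell barcodes. Cells were assigned to classes by how many markers of a cell type they held. This gave 16154 fibroblasts (2709 to 6004 per library), a class that takes in telocytes, the cells the study is about, 5849 macrophages (592 to 2323 per library) and smaller classes. All 8 fibroblast markers were detected in the fibroblast sums of every library. A class called Plac8 leukocytes here passed no gate but held monocyte markers and some Flt3, and was not named further. Its mean Plac8 level was 2735 CPM, and Plac8 was also high in B cells (2408 CPM) and neutrophils (2155 CPM). Levels are CPM, a gene's UMIs in a class of 1 library scaled to a common total.

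By UMIs pooled over the 4 libraries, Has1, Has2, Tnfaip6 and Ptx3 were read almost only in fibroblasts, and the other members in several classes. Fibroblasts, the main makers of loose matrix, held 98.1% of the Has1 UMIs of all kept cells, 98.0% of Has2, 97.2% of Tnfaip6, 97.4% of Ptx3 and 89.2% of Vcan. Fibroblasts were 49.9% of all kept cells, and neutrophils and Plac8 leukocytes were 2.00% and 2.40%. Per class the mean Vcan level was 236 ± 43.5 CPM in fibroblasts, 148 ± 69.2 in neutrophils and 116 ± 101 in Plac8 leukocytes (SD, n = 4), with overlapping ranges. In macrophages, 18.1% of the kept cells, it was 7.96 ± 4.13 CPM. The Ptx3 share rests mostly on the acupuncture libraries. In the dysentery libraries Ptx3 read 5.32 and 17.1 CPM in epithelial cells, from 5 and 3 UMIs, and 1.83 and 2.14 CPM in fibroblasts. Has2 read 23.0 and 14.3 CPM in acupuncture epithelial cells, from 31 and 7 UMIs, and 137 and 112 CPM in acupuncture fibroblasts. Fibroblasts held 23.9% of Cd44, 38.8% of Hyal2 and 20.1% of Cemip2 UMIs. Macrophages held 59.2% of Cemip2, 37.8% of Hyal2 and 21.3% of Cd44 UMIs. Hyal1, the lysosomal hyaluronidase, had 9 UMIs in all kept cells and was not detectable at a level that allows a comparison.

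**Figure D1:**
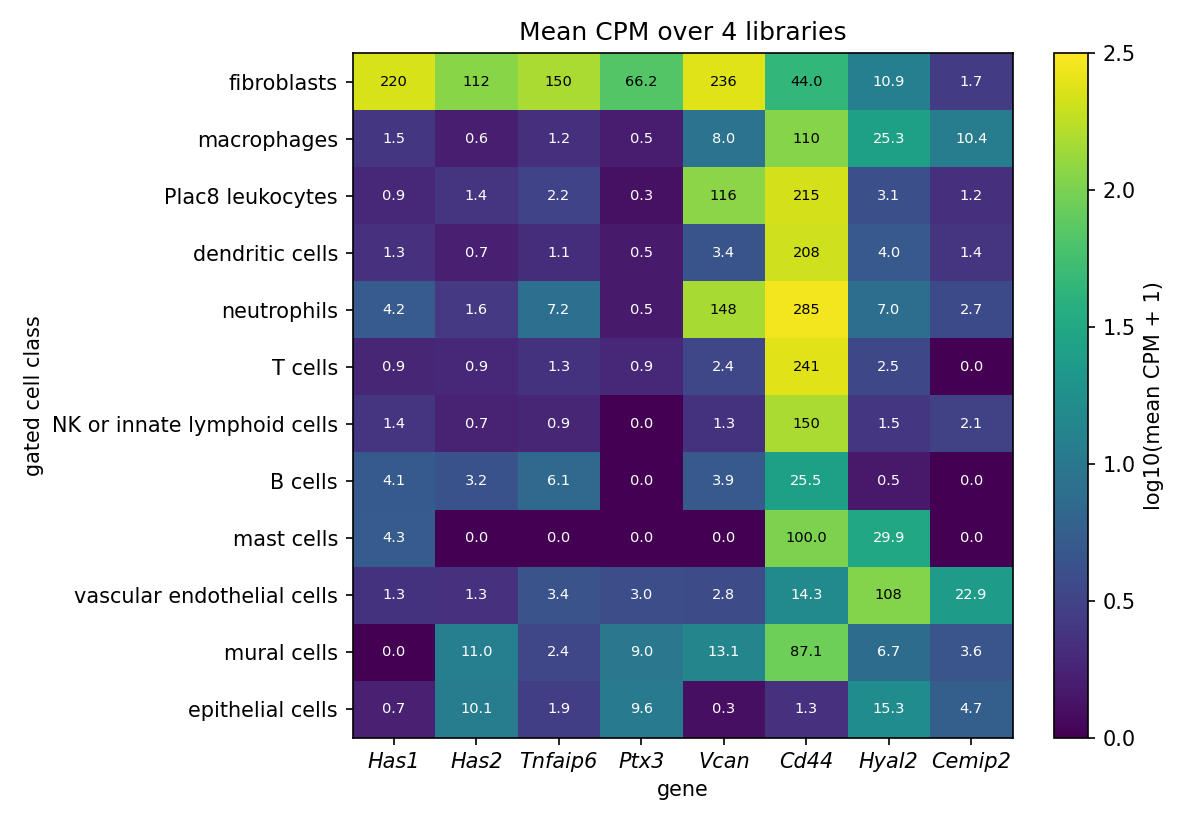
Mean CPM over the 4 libraries (number in each cell of the grid, colour on a log10 scale of mean CPM + 1) for 8 genes (columns) in 12 gated cell classes (rows). Has1, Has2, Tnfaip6 and Ptx3 are brightest in fibroblasts, Cd44 is bright in most leukocytes, and Hyal2 and Cemip2 are highest in vascular endothelial cells; mast, B, mural and epithelial cells rest on few cells.

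The promoters shown are those of Has1, Tnfaip6 and Ptx3, the members called higher with acupuncture in fibroblasts. Promoter windows were taken from RefSeq (GRCr8) by symbol, and 7 of the 9 members had an entry, all but Has2 and Cemip2. The windows hold the 250 bases before the start of the gene, 5′ to 3′ on the gene's strand. Capitals mark matches to a motif searched on both strands: TGANTCA (AP-1), TGACGTCA (CRE), TTGCNNAA (C/EBP), TATAAA (a core promoter box) and an NF-kB motif (GGGA, then any 4 bases, then CC).
Has1 promoter, chr1:67378445-67378694, minus strand: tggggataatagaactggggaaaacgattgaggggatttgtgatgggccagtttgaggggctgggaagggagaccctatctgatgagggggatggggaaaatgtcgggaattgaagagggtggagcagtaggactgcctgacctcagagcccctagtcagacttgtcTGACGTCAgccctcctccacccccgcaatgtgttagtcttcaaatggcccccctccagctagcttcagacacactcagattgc
Tnfaip6 promoter, chr3:56911148-56911397, plus strand: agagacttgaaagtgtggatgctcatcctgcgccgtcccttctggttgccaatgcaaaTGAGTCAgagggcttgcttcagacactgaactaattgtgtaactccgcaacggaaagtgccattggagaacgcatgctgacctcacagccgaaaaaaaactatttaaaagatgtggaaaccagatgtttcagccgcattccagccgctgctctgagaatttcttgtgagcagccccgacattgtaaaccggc
Ptx3 promoter, chr2:152797313-152797562, plus strand: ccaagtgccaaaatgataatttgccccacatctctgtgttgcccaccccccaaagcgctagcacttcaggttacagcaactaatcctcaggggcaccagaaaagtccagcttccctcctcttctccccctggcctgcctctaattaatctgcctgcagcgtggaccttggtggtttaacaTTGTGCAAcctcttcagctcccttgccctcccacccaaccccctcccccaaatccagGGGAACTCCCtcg
The Has1 window held a CRE match 83 to 76 bases before the start, a motif found in 1.59% of the 33469 RefSeq windows of this length. The Tnfaip6 window held an AP-1 match 192 to 186 bases before the start, found in 6.34% of windows. The Ptx3 window held a C/EBP match 70 to 63 bases before the start and an NF-kB match 13 to 4 bases before it, found in 9.22% and 16.4% of windows. No motif was shared by all 3 windows. A match describes letters only and shows no binding.

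Has1 rose in fibroblasts with acupuncture and Has2 did not pass the test. Over the class, 3 of 8 members tested were higher and 0 were lower, where 1.54% of the 13245 genes tested in fibroblasts were called, 1.24% higher and 0.302% lower. The median log2 difference of the 8 members was 0.61, against -0.004 over all genes tested. Hyal1 was too low to test. As the members were chosen with earlier results of these data known, these counts describe the members and are no test of them as a set.

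Has1, a synthase, read 452 and 279 CPM in the acupuncture libraries and 58.8 and 89.5 CPM in the dysentery libraries. Both acupuncture libraries lay above both dysentery libraries, and the groups did not overlap, in either direction, for 48.6% of the genes tested in fibroblasts. The fitted log2 difference, acupuncture minus dysentery, was 2.29 ± 0.29 (SE), with an edgeR adjusted p of 0.0358. Without acupuncture replicate 1 or 2 the adjusted p of edgeR was 0.139 and 0.150, with log2 differences of 1.99 and 2.54. Has2, the other synthase, read 137 and 112 CPM with acupuncture and 84.5 and 116 CPM without it. The groups overlapped. Its log2 difference was 0.31 with a 95% interval of -0.17 to 0.79 and an edgeR adjusted p of 0.423.

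Tnfaip6 encodes TSG-6, a secreted protein that moves heavy chains of inter-alpha-inhibitor onto hyaluronan. It read 272 and 226 CPM in the acupuncture fibroblasts and 59.8 and 40.8 CPM in the dysentery fibroblasts, with no overlap. The log2 difference was 2.33 ± 0.18 (SE, edgeR adjusted p = 0.0145). It was 2.27 and 2.39 without acupuncture replicate 1 or 2, where the edgeR adjusted p was 0.0827 and 0.110. Ptx3, a long pentraxin that binds TSG-6 and the heavy chains and helps to cross-link the coat, read 86.3 and 175 CPM with acupuncture and 1.83 and 2.14 CPM without it. The dysentery sums held 39 and 89 Ptx3 UMIs, and the acupuncture sums 2645 and 6379. The log2 difference was 6.05 ± 0.49 (SE, edgeR adjusted p = 0.0147). Ptx3 stayed past the threshold when any 1 library was left out, with log2 differences of 5.35 to 6.52 and a highest edgeR adjusted p of 0.0364 over all alternatives run.

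Vcan, the large proteoglycan that binds hyaluronan, read 257 and 182 CPM with acupuncture and 282 and 221 CPM without it in fibroblasts. The groups overlapped, and the log2 difference was -0.19 (95% interval -0.60 to 0.23, edgeR adjusted p = 0.591). In neutrophils Vcan read 91.7 and 132 CPM with acupuncture and 248 and 119 CPM without. In the Plac8 leukocytes it read 254 and 83 CPM against 114 and 14.6 CPM. Both spreads within a group were wide, and neither difference passed the test (log2 -0.86 and 1.30, edgeR adjusted p = 0.300 and 0.556). Leaving out 1 library, the neutrophil difference ran from -1.12 to -0.26 and passed without dysentery replicate 2 (edgeR adjusted p = 0.0344), and the Plac8 leukocyte difference ran from 0.24 to 3.48 and passed without dysentery replicate 1 (edgeR adjusted p = 0.0354). The 6 neutrophil markers summed to 197 and 81.6 CPM in the Plac8 leukocytes with acupuncture and to 1205 and 32.3 CPM without it, and their part in the Vcan level was not tested. In macrophages Vcan read 6.09 and 13.1 CPM against 9.11 and 3.53 CPM (log2 0.81, edgeR adjusted p = 0.405).

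**Figure D2:**
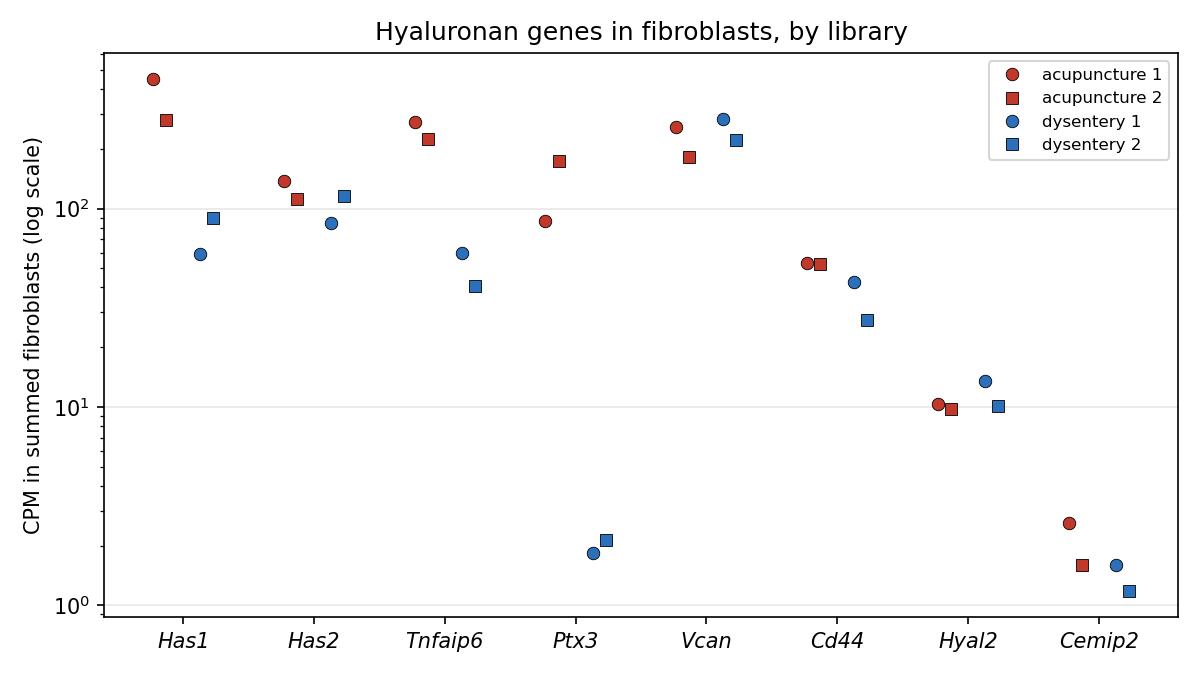
CPM (log axis) of 8 genes in summed fibroblasts, with 1 point per library, red for acupuncture and blue for dysentery. The red points lie above the blue for Has1, Tnfaip6 and Ptx3, with Ptx3 at 1.83 and 2.14 CPM in the dysentery libraries, and are mixed with the blue for Has2 and Vcan.

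Genes that respond early to stress and heat moved with the group in the same fibroblast sums. The 11 genes of this list with a row summed to 12769 and 15067 CPM with acupuncture and 3124 and 3485 CPM without it. In macrophages they summed to 23577 and 27400 CPM against 12241 and 7121 CPM. Their part in the differences of the hyaluronan genes was not tested. All 8 macrophage markers were detected in the fibroblast sums, at 108 and 87.3 CPM in all against 85.5 and 43.7 CPM. The 6 neutrophil markers summed to 173 and 160 CPM there against 488 and 479 CPM. As Cd44 is also read in macrophages and neutrophils, their part in the fibroblast Cd44 level was not tested.

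Cd44 had opposite signs in fibroblasts and macrophages. Cd44, the main surface receptor for hyaluronan, read 53.0 and 52.7 CPM in acupuncture fibroblasts and 42.8 and 27.4 CPM in dysentery fibroblasts. The log2 difference was 0.62 ± 0.20 (SE, edgeR adjusted p = 0.194). In macrophages it read 79.2 and 89.4 CPM with acupuncture and 146 and 125 CPM without it, and the log2 difference was -0.57 ± 0.13 (SE, edgeR adjusted p = 0.0668). The groups did not overlap in either class, as for 48.6% of genes in fibroblasts and 58.5% in macrophages, and neither difference passed the test. The 6 monocyte markers, all detected, summed to 174 and 160 CPM in the acupuncture macrophages and 488 and 495 CPM in the dysentery macrophages, with Ccr2 at 105 and 111 against 234 and 411 CPM. Cd44 read 182 to 273 CPM in the Plac8 leukocytes, which hold these markers, and the part of the markers in the macrophage Cd44 level was not tested. The difference between these changes was 1.18 ± 0.19 (SE), with an interaction adjusted p of 0.0646 in edgeR. Of the members, 0 of 8 tested passed this interaction test, against 0.0878% of 13671 genes, and 2 had an unadjusted p under 0.05, Cd44 and Cemip2. The Cd44 interaction was past the threshold with no filter on low counts and with doublets kept (1.07, edgeR adjusted p = 0.0224). It also passed with the stricter marker gate (1.23, edgeR adjusted p = 0.0150). It did not pass in every alternative run. Leaving out 1 library in turn, the difference ran from 0.98 (without dysentery replicate 2) to 1.39 (without dysentery replicate 1).

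T cells and NK or innate lymphoid cells held more Cd44 in both acupuncture libraries, without passing the test in their own class. T cells read 263 and 299 CPM against 195 and 207 CPM (log2 0.53, edgeR adjusted p = 0.151). Groups did not overlap for 42.6% of genes in T cells and 45.9% in NK or innate lymphoid cells. NK or innate lymphoid cells read 155 and 213 CPM against 124 and 108 CPM (log2 0.59, edgeR adjusted p = 0.218). Dendritic cells, neutrophils and the Plac8 leukocytes differed by 0.04, 0.22 and 0.13 on the log2 scale (edgeR adjusted p = 0.95, 0.876 and 0.869), where groups did not overlap for 47.2%, 40.1% and 44.3% of genes.

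The Cd44 change was set against that in macrophages in 6 further classes, in tests added after the values had been seen. The difference from macrophages was 1.11 ± 0.19 (SE, edgeR adjusted p = 0.0105) in T cells and 1.14 ± 0.24 (SE, edgeR adjusted p = 0.00596) in NK or innate lymphoid cells, where 1.61% and 2.56% of genes were called. Neither T cells nor NK or innate lymphoid cells passed without acupuncture replicate 2 (edgeR adjusted p = 0.0708 and 0.181), and the latter did not without dysentery replicate 1 (edgeR adjusted p = 0.102). In the T cell class NK markers summed to 478 and 372 CPM with acupuncture and 1141 and 1016 CPM without it, and early-response genes to 20682 and 18729 against 14611 and 8991 CPM. In the NK class T cell markers overlapped between the groups (983 and 1143 against 944 and 1116 CPM). The part of these and of the monocyte markers in macrophages was not tested. The difference did not pass in neutrophils (0.99, with 1.73% of genes called), dendritic cells (0.60, with 0.36%), Plac8 leukocytes (0.67, with 0.4%) or vascular endothelial cells (-0.17, with 0.976%). Over the 4 libraries the mean Cd44 level was highest in neutrophils (285 ± 39.0 CPM, SD, n = 4), then T cells (241 ± 48.6), Plac8 leukocytes (215 ± 40.3) and dendritic cells (208 ± 27.8). These neighbours differed by less than their spread. NK or innate lymphoid cells (150 ± 46.6), macrophages (110 ± 31.1), fibroblasts (44.0 ± 12.0) and vascular endothelial cells (14.3 ± 12.6) followed. Macrophages and NK or innate lymphoid cells also overlapped. Mast, mural, B and epithelial cells, with 27, 34, 28 and 6 Cd44 UMIs, are too thinly sampled to place.

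**Figure D3:**
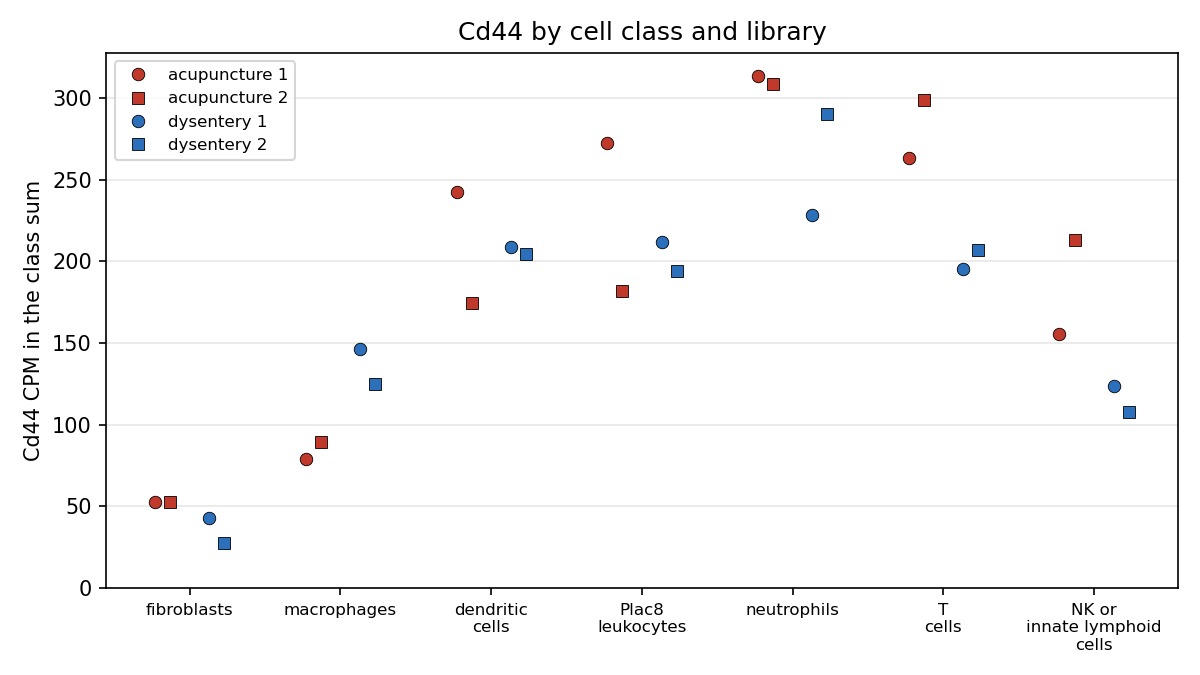
Cd44 CPM (linear axis from 0) in 7 cell classes, with 1 point per library, red for acupuncture and blue for dysentery. The red points lie below the blue in macrophages and above them in fibroblasts, T cells, NK or innate lymphoid cells and neutrophils.

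Cemip2, also known as TMEM2, is a cell-surface protein reported to cut hyaluronan, and it rose in macrophages. It was the only called member of 6 tested there, where 4.81% of the 11302 genes tested were called, 3.14% higher and 1.67% lower. It read 15.3 and 14.3 CPM with acupuncture and 6.0 and 5.88 CPM without it, with no overlap, as for 58.5% of the genes tested there. The dysentery sums held 27 and 45 Cemip2 UMIs. The log2 difference was 1.43 ± 0.18 (SE, edgeR adjusted p = 0.0186). Without acupuncture replicate 1 or 2 the edgeR adjusted p was 0.183 and 0.186, with clusters in place of gates 0.0594, and with cells thinned to 2000 UMIs 0.0784. The monocyte and early-response markers that move with the group in macrophages stand beside this difference too, and their part in it was not tested. In fibroblasts it was low, at 2.61 and 1.59 CPM against 1.6 and 1.18 CPM, and did not pass the test (log2 0.61, edgeR adjusted p = 0.388). Its highest mean level was in vascular endothelial cells, 35.9 and 22.1 CPM against 18.6 and 15 CPM, from 62 UMIs (log2 0.67, edgeR adjusted p = 0.569).

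Hyal2, a hyaluronidase anchored to the cell surface, read 10.4 and 9.74 CPM in acupuncture fibroblasts and 13.4 and 10.1 CPM in dysentery fibroblasts (log2 -0.20, edgeR adjusted p = 0.525). In macrophages it read 26.8 and 26.5 CPM against 22.4 and 25.4 CPM (log2 0.26, edgeR adjusted p = 0.318). In vascular endothelial cells it was highest, at 125 and 121 CPM against 88.5 and 96.4 CPM, and the difference did not pass the test, in a class where 45.8% of genes did not overlap between the groups (log2 0.32, 95% interval -0.14 to 0.79, edgeR adjusted p = 0.546). Cdh5, an endothelial marker, read 641 and 612 CPM in this class with acupuncture and 438 and 372 CPM without it. Ccr2, a monocyte marker, read 1.71 and 45.1 against 205 and 44.9 CPM. Median depth was 2807.5 and 4292.5 UMIs against 7501 and 6670. The part of these in the endothelial Hyal2 and Cemip2 levels was not tested. In the 6 tested classes other than fibroblasts and macrophages, edgeR called 0 members and DESeq2 also called 0, and 3 tests had an unadjusted p under 0.05. These were Cd44 in T cells and in NK or innate lymphoid cells and Vcan in neutrophils. Of all genes, edgeR called 4.74% in dendritic cells (3.95% higher, 0.793% lower) and 0.901% in neutrophils (0.3% higher, 0.601% lower). It called 1.39% in T cells (1.07% higher, 0.316% lower) and 1.2% in NK or innate lymphoid cells (0.6% each way). It called 0.202% in vascular endothelial cells (0.14% higher, 0.0623% lower) and 0.639% in Plac8 leukocytes (0.525% higher, 0.114% lower).

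**Figure D4:**
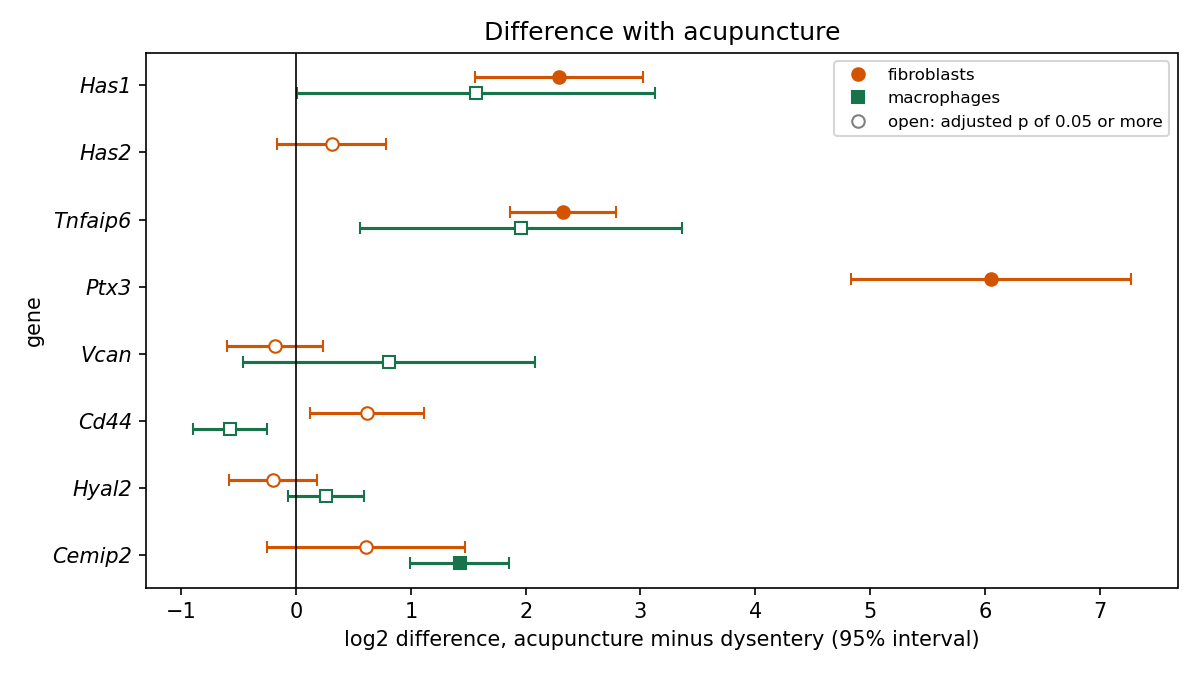
Log2 difference, acupuncture minus dysentery, with its 95% interval from edgeR, for the members tested in fibroblasts (circles) and macrophages (squares). Filled symbols passed an adjusted p of 0.05: Ptx3, Tnfaip6 and Has1 in fibroblasts and Cemip2 in macrophages; Cd44 lies on opposite sides of 0.

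Has1, Tnfaip6 and Ptx3 UMIs in macrophages stood near the level that fibroblast RNA reaches there. Relative to fibroblasts of the same library, macrophages held 0.38% to 1.31% of the Has1 level, 0.64% to 1.48% of Tnfaip6 and 0% to 0.85% of Ptx3. For Col1a1 and Dcn, collagen and decorin genes of fibroblasts, the range was 0.40% to 1.23% and 0.44% to 1.04%. The macrophage log2 differences of Has1 and Tnfaip6 (1.57 and 1.96, edgeR adjusted p = 0.213 and 0.113) rest on 93 and 80 UMIs and are not read as macrophage expression.

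More fibroblasts held these transcripts with acupuncture, and single fibroblasts held more of them. After each fibroblast was thinned to 2000 UMIs, which left out 237 to 420 shallower fibroblasts per library, Has1 was detected in 30.4% and 23.2% of acupuncture fibroblasts and 9.47% and 15.4% of dysentery fibroblasts. The means were 26.8 ± 5.08% and 12.4 ± 4.20% (SD, n = 2), with an exact permutation p of 0.333 (two-sided), the smallest that 2 against 2 libraries allow. Unthinned, the shares were 45.0% and 43.8% against 27.0% and 35.3%. Tnfaip6 was detected in 24.2% and 21.2% against 11.7% and 7.13%, and Ptx3 in 5.22% and 10.3% against 0.53% and 0.36%. Has2 was detected in 18.0% and 13.8% against 14.3% and 18.6%, with overlap. In T cells, which should lack Has1, the thinned share was at most 0.44% in any library, as it was for Tnfaip6, with a median depth of 4548 to 5794 UMIs before thinning, against 6726 to 9475 in fibroblasts. The Ptx3 share in T cells was 0.44% and 0.61% in the acupuncture libraries and 0% and 0.47% in the dysentery libraries, the last against 0.36% in fibroblasts of the same library. Macrophages held 0 Ptx3 UMIs in both dysentery libraries, T cells 0 and 1, and fibroblasts 39 and 89. At 2000 UMIs, cells with at least 2 Has1 UMIs held 80.9% and 68.7% of the Has1 UMIs in the acupuncture libraries and 28.1% and 32.5% in the dysentery libraries.

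In the acupuncture libraries Tnfaip6 and Ptx3 were detected more often in fibroblasts with a Has1 UMI than in those without. Of fibroblasts with a Has1 UMI, 38.1% and 35.7% also held Tnfaip6, against 18.2% and 16.8% of those without one. In the dysentery libraries the shares were 13.7% against 11.5%, and 6.63% against 7.22%, with overlapping 95% Clopper-Pearson intervals, which cover counting error only. Ptx3 was found in 12.6% and 21.4% of Has1-positive acupuncture fibroblasts and in 2.00% and 6.90% of the others, while the dysentery libraries held 1 and 7 Has1-positive fibroblasts with Ptx3. Has2 was found more often with Has1 in all 4 libraries, at 20.6% to 29.1% against 11.8% to 17.4%. Whether the co-detection differs between the groups was not tested.

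**Figure D5:**
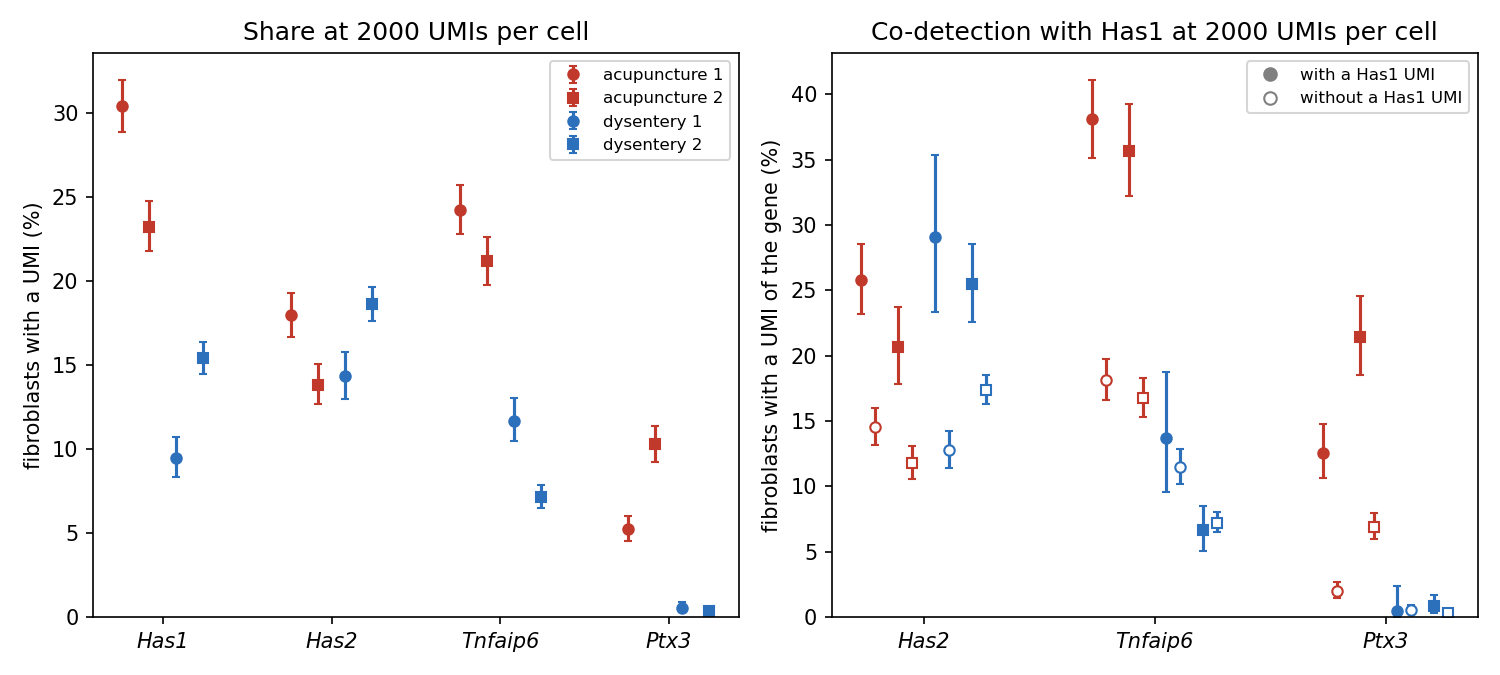
Left, the percent of fibroblasts with at least 1 UMI of each gene at 2000 UMIs per cell; right, the percent with a UMI of Has2, Tnfaip6 or Ptx3 among fibroblasts with (filled) or without (open) a Has1 UMI. Points are libraries, red for acupuncture and blue for dysentery, and bars are 95% Clopper-Pearson intervals; Has1 shares are 23.2% and 30.4% in red and 9.47% and 15.4% in blue.

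Within fibroblasts the genes were spread unevenly. The subset with neither Pi16 nor Dpp4 was small, with 446 and 358 cells in the acupuncture libraries and 295 and 378 in the dysentery libraries. Fibroblasts with neither Pi16 nor Dpp4, markers of adventitial fibroblasts, read 98.4 and 151 CPM of Has1 with acupuncture and 18.0 and 21.6 CPM without it, against 485 and 289 and 62.4 and 92.8 CPM in fibroblasts with either marker. Ptx3 was lower in them too, at 5.34 and 27.6 CPM against 93.8 and 186 CPM in the acupuncture libraries. Tnfaip6 was higher in 3 of the 4 libraries, at 216 and 554 CPM with acupuncture and 112 and 107 CPM without, against 278 and 199 and 55.2 and 37.5 CPM. These subsets differ in depth, with medians of 4399 to 7096 UMIs against 6851 to 9813, and a gene is more easily missed in a shallow cell. Among fibroblasts with both Cd34 and Pdgfra, the marker pair of telocytes, Has1 read 500 and 313 against 62.3 and 88.1 CPM, Tnfaip6 302 and 225 against 56.8 and 40.5 CPM, and Ptx3 96.0 and 211 against 1.38 and 2.08 CPM. Fibroblasts with Mrgprg numbered 1080 and 381 with acupuncture and 329 and 2874 without it. They read 620 and 345 against 80.6 and 103 CPM of Has1, and 187 and 166 against 146 and 141 CPM of Has2. The part of subset numbers in the fibroblast levels was not tested.

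Of 49 other genes of hyaluronan supply, binding and turnover, 48 had a row and 31 were tested in fibroblasts, where 1 rose and 0 fell, against 1.24% higher and 0.302% lower among all genes tested. The gene that rose was Adamts1, a protease that cleaves versican, at 181 and 133 CPM against 57.2 and 44.1 CPM (log2 1.65 ± 0.16, SE, edgeR adjusted p = 0.0193). Without acupuncture replicate 1 or 2 it did not pass, with log2 differences of 1.49 and 1.78. Uap1 and Gfpt2, genes of the supply of hyaluronan precursors, read 565 and 440 against 509 and 672 CPM, and 532 and 391 against 557 and 829 CPM. Fbln2 and Fbn1, matrix partners of versican, differed by -0.09 and 0.51 on the log2 scale. Adamts5, another versican-cleaving protease, differed by -0.35, the lysosomal Hexa by -0.05, and Ptprj and Tlr4 of the receptor group by 0.29 and -0.52, and none of these passed.

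In macrophages 26 of the 48 genes were tested, 3 rose and 1 fell, against 3.14% higher and 1.67% lower among all genes tested. Stab1, a scavenger receptor that takes up matrix fragments, read 403 and 408 CPM with acupuncture and 179 and 181 CPM without it (log2 1.28 ± 0.11, SE, edgeR adjusted p = 0.0103). Tlr2, a pattern receptor that hyaluronan fragments are reported to engage, read 142 and 156 against 76.4 and 66.2 CPM (log2 1.18, edgeR adjusted p = 0.0149). Hexa, a lysosomal hexosaminidase subunit, read 143 and 169 against 96.8 and 75.3 CPM (log2 0.98, edgeR adjusted p = 0.0321). Gfpt2 fell by 1.10 on the log2 scale, from 8.22 and 9.54 CPM to 3.80 and 3.89 CPM (edgeR adjusted p = 0.0472). None of these 4 passed without acupuncture replicate 1 or without acupuncture replicate 2. In fibroblasts Stab1 and Tlr2 were at most 3.48 CPM, with log2 differences of 1.03 and -0.19. Gfpt2 was far higher in fibroblasts, at 532 and 391 CPM with acupuncture and 557 and 829 CPM without it. Fibroblast RNA read in macrophages also differed by group. Col1a1 reached 0.42% and 0.40% of its fibroblast level there with acupuncture and 1.23% and 0.94% without it. The part of such RNA in the macrophage Gfpt2 level was not tested. In macrophages Uap1, Tlr4, Ptprj, Fbln2, Fbn1, Adamts1 and Adamts5 differed by -0.22, 0.03, -0.004, -0.90, 0.09, 0.61 and -1.29 on the log2 scale, and none passed.

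The genes most like each member were found by Pearson's r of log2(CPM + 1) over the 48 sums of a class in a library, among 7990 genes. This is a description, since sums of a library share its depth and most of the pattern is which class a gene is read in. Has1 was most like Sfrp4 (r = 0.90), then Mfap4, Gap43, Myoc and Pdgfra. Has2 was most like Zfhx4, with Tnfaip6 next, then Itga11, Col16a1 and Dact2 (r = 0.84 to 0.79). Tnfaip6 was most like Itga11, then Has2, Sfrp4, Myoc and Mmp27 (r = 0.84 to 0.82). Genes like Ptx3 included Ltbp3 (r = 0.73), Prelp, Fat1 and Maged1. Vcan was most like Fn1 (r = 0.82), then Lrp1, Prg4, Tnfaip2 and Il1r2. Cd44 was most like Pfn1 (r = 0.82), then Capza1, Twf2, Tln1 and S100a4. Cemip2 was most like Eng (r = 0.81), then Prpf40b, Egfl7, Scarf1 and Chp2. Hyal2 was most like Bmpr2 (r = 0.72), then Mettl7a, Cyb5r1, Nck1 and Slc39a1. For Hyal1, at 9 UMIs, likeness has no meaning.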

How the data were processed

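Per the labels' protocols, fascia was digested with collagenase and elastase, red blood cells were lysed and dead cells depleted. Values are raw UMI counts, deposited as matrices of genes by cells and made by the authors with Cell Ranger 6.0.1 and STAR per the submitters' processing notes and file headers. The notes name mRatBN7.2 and GRCh38.p13 with no role. The deposited barcode and feature lists hold names only.

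Cells with at least 300 genes, 500 UMIs and at most 20% mitochondrial UMIs were kept, and Scrublet (scanpy 1.11.5) removed the highest-scoring cells at 0.8% per 1000 cells. A cell entered a class if it passed exactly 1 gate on the number of markers detected (6 of 8 for fibroblasts, 5 of 8 for macrophages). Gate minimums were set after seeing marker counts. Sums of counts over the cells of each class in a library were tested with edgeR 4.0.16 (quasi-likelihood, TMM, filterByExpr at 10 counts, Benjamini-Hochberg within a class, threshold 0.05) in classes with at least 30 cells per library. Data were also simulated from the same means, with changes put only into genes above 20 CPM and the spread of counts taken from a fitted trend. Of genes changed by log2 1.5 or 3, 100% were recovered in fibroblasts (13101 genes run) and macrophages (11128). This does not cover lower genes, such as Cemip2 in macrophages, or genes that vary more than the trend. Changes smaller than log2 1.5, such as those of Cd44, were not simulated. Alternatives included DESeq2 1.42.0.

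The members and lists were chosen with earlier results of these data known. Named were all members, the pathway genes past the threshold in fibroblasts or macrophages, the 2 highest of each group of the list in fibroblasts, and the 5 genes of at least 10 CPM most like each member; some genes this rule names are not reported here.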

Additional observations from a re-analysis of the deposited data

Results flagged for a closer look

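Cd44 changed differently in T cells and in NK or innate lymphoid cells than in macrophages. The difference between the log2 change in T cells and that in macrophages was 1.11 ± 0.19 (SE, edgeR adjusted p = 0.0105), where 1.61% of the 10609 genes tested were called. Between NK or innate lymphoid cells and macrophages it was 1.14 ± 0.24 (SE, edgeR adjusted p = 0.00596), where 2.56% of 10723 genes were called. Both were noted because a test of the difference itself passed. These 2 tests were among 6 added after the Cd44 values had been seen, and those of dendritic cells, neutrophils, vascular endothelial cells and Plac8 leukocytes against macrophages did not pass (edgeR adjusted p = 0.353, 0.224, 0.979 and 0.309). Leaving out 1 library in turn, the T cell difference was 1.02 to 1.24 (edgeR adjusted p = 0.000205 to 0.0708) and the NK difference 0.96 to 1.22 (edgeR adjusted p = 0.0132 to 0.181). Monocyte markers in the macrophages (174 and 160 against 488 and 495 CPM) and NK markers in the T cells (478 and 372 against 1141 and 1016 CPM) moved with the group, and their part in these differences was not tested.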

How the results depend on the processing

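Leaving out 1 library in turn gave 1 to 4 members called in fibroblasts, 0 to 1 in macrophages and 0 to 1 in the other classes, 0 to 5 pathway genes in fibroblasts, 0 to 5 in macrophages and 0 to 2 members in the interaction. The lone library of an arm is then assumed to vary like the others. Ptx3 alone of the members was called in fibroblasts without acupuncture replicate 1 or 2, and Cd44 joined the main 3 without dysentery replicate 1 (edgeR adjusted p = 0.0224). Macrophages had 2 members called with DESeq2 (Cd44, lower, beside Cemip2), 6 with no filter, and 0 with cluster classes or thinned cells. With no filter the other classes had 1 member called, the fibroblasts 3 pathway genes and the interaction 1 member. DESeq2 called 6 pathway genes in fibroblasts, and doublets kept or only Cd34 and Pdgfra fibroblasts 2 each. Cluster classes gave 1 pathway gene in macrophages. The interaction called 1 member with doublets kept and 1 with the stricter gate. The Tnfaip6 share difference was 8.30 percentage points at 1000 UMIs and 19.0 unthinned, and that of Ptx3 12.3 unthinned.

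Replicate numbers were not used as a pairing, as the labels do not say that they pair animals. Deviations of same-numbered libraries correlated at 0.0734 in fibroblasts and 0.0261 in macrophages, over 2 pairs. So few pairs cannot show whether same-numbered libraries were paired. With the replicate block 2 members were called in other classes (Vcan in neutrophils and Plac8 leukocytes), 2 pathway genes in macrophages, and 381 and 242 genes in all in fibroblasts and macrophages.

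All calls numbered 204 in fibroblasts and 544 in macrophages. They were 806 and 830 with DESeq2 and 673 and 2055 with no filter. Without acupuncture replicate 1, acupuncture replicate 2, dysentery replicate 1 and dysentery replicate 2 they were 34, 2, 643 and 493 in fibroblasts, and 0, 0, 771 and 433 in macrophages. Fibroblasts had 355 with doublets kept, 321 with the stricter gate, 334 with cluster classes and 414 for Cd34 and Pdgfra fibroblasts; macrophages had 157 with cluster classes and 222 with thinned cells. The causes were not tested.

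Of 613 values of single genes under alternatives (thinned sums and leaving out libraries in the lymphocyte Cd44 tests were chosen after seeing the data), 538 kept direction and side of the threshold, 20 newly passed, 32 no longer passed and 23 turned sign, none of these called. Leaving out 1 library, the Has2 share difference ran from -2.72 to 1.58 percentage points, and the log2 ranges that crossed 0 were those of Cd44 in dendritic cells (-0.19 to 0.26, turned without acupuncture replicate 1), Cd44 in neutrophils (-0.040 to 0.50, turned without dysentery replicate 1), Cd44 in Plac8 leukocytes (-0.22 to 0.41, turned without acupuncture replicate 1) and Hexa in fibroblasts (-0.22 to 0.10, turned without acupuncture replicate 1), of Ptprj in fibroblasts (-0.0013 to 0.53, turned without acupuncture replicate 1), Uap1 in fibroblasts (-0.45 to 0.032, turned without dysentery replicate 2), Adamts1 in macrophages (-0.13 to 1.59, turned without dysentery replicate 2) and Fbn1 in macrophages (-0.0042 to 0.26, turned without dysentery replicate 1), and of Ptprj in macrophages (-0.064 to 0.062, turned without acupuncture replicate 2 or dysentery replicate 2), Tlr4 in macrophages (-0.065 to 0.18, turned without dysentery replicate 1), Has1 in fibroblasts minus macrophages (-0.78 to 0.98, turned without dysentery replicate 2) and Tnfaip6 in fibroblasts minus macrophages (-0.35 to 0.85, turned without dysentery replicate 1). With cluster classes the sign turned for Vcan in macrophages (-0.69), Fbn1 in macrophages (-0.54), Ptprj in macrophages (0.0036) and Tlr4 in macrophages (-0.041). With thinned cells the sign turned for Cd44 in dendritic cells (-0.48). With the stricter gate the sign turned for Fbn1 in macrophages (-0.23) and Tlr4 in macrophages (-0.032). With no filter the sign turned for Ptprj in macrophages (0.031). With the 10% mitochondrial limit the sign turned for Ptprj in macrophages (8.05e-05). With doublets kept the sign turned for Ptprj in macrophages (0.017).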

Other observations

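Pathway genes outside fibroblasts and macrophages gave 2 calls, named here after their values were seen. The pathway genes tested numbered 16 in dendritic cells, 5 in neutrophils and 13 in T cells. They numbered 6 in NK or innate lymphoid cells, 13 in vascular endothelial cells and 16 in Plac8 leukocytes. Adamts1, the versican-cleaving protease that rose in fibroblasts, was also higher with acupuncture in vascular endothelial cells (log2 2.89 ± 0.26, SE, edgeR adjusted p = 0.00817), where 0.202% of the 6420 genes tested were called. Lyve1, a hyaluronan receptor known from lymphatic vessels and some macrophages, fell by 0.94 on the log2 scale in the dendritic cell class (SE 0.14, edgeR adjusted p = 0.00515), where 4.74% of 8201 genes were called. Early-response genes in vascular endothelial cells summed to 8553 and 9864 CPM with acupuncture and 9118 and 8204 CPM without it, so those groups overlapped. In the same sums the mural markers summed to 142 and 87.4 CPM (5 and 6 of 8 detected) against 25.6 and 44.9 CPM (4 and 3 of 8), and the lymphatic endothelial markers to 41 and 213 CPM (4 of 4) against 2.33 and 0 CPM (1 and 0 of 4). Ptprc, a leukocyte gene, read 0 and 27.6 against 102 and 24.9 CPM. In the dendritic class, macrophage markers overlapped between the groups (373 and 290 against 321 and 363 CPM), and early-response genes did not (23474 and 21291 against 6490 and 7359 CPM). Lyve1 itself read 1240 and 1162 CPM in macrophages with acupuncture and 936 and 1608 CPM without it. The part of these markers in both calls, and of macrophage RNA in the Lyve1 call, was not tested. Neither call is given here with a library left out.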
